A study of Mus musculus with 6 samples.

Results

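The genes described here are those of the major histocompatibility complex (MHC) and of antigen processing, chosen by name: every symbol of the expression table that starts with H2-, the prefix of the mouse MHC, and 15 genes that make, load or regulate MHC molecules. They came to 59 of 38216 symbols, 44 with the H2- prefix and 15 others. The RNA came from sorted splenic CD4+ T cells of IL21-VFP reporter mice on the C57BL/6 background at postnatal day 28, in which the fluorescent protein VFP reports Il21 transcription. All 3 pools carried the reporter, the labels name no treatment, and VFP and ICOS, a costimulatory molecule of activated T cells, set them apart. N cells were VFP- ICOS-, ACT cells VFP- ICOS+ and ACT_IL21 cells VFP+ ICOS+, with 2 libraries a pool. The labels do not tie the paired libraries of any pool to different mice, and the p-values therefore measure only library-to-library spread, which may be technical.

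Nearly all nucleated cells carry MHC class I molecules, a heavy chain bound to beta-2 microglobulin that shows peptides from inside the cell to CD8 T cells and to natural killer cell receptors. The proteasome cuts proteins into these peptides, the TAP transporter carries them into the endoplasmic reticulum, and a loading complex fits them into the groove. Class II molecules show peptides from endosomes to CD4 T cells and belong to B cells, dendritic cells and macrophages. Mouse T cells carry class I at high levels and are not known as makers of class II.

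Levels are TPM, a share of all transcripts in a library corrected for transcript length, which allows genes to be set side by side. Each library had 12095 to 12396 symbols at 1 TPM or more, and the depth in reads is unknown. The sort markers followed the labels, with Icos at 31.9 to 35.7 TPM in N, 241 to 254 in ACT and 185 to 227 in ACT_IL21. Il21 was listed at 0 in N, at 0 and 1.26 in ACT, and at 44.5 and 51.9 in ACT_IL21. T cell genes were present in every library, with the 7 T cell markers summing to 4555 to 6949 TPM. Among them, Cd4 was at 316 to 358 TPM in N, 236 to 268 in ACT and 534 to 567 in ACT_IL21, and the ACT_IL21 level passed against both others (adjusted p = 0.0301 for N and 0.0103 for ACT). Cd247, which encodes a T cell receptor signalling chain, was lower in ACT than in N (-0.75, adjusted p = 0.0221) and higher in ACT_IL21 than in ACT (0.94, adjusted p = 0.0205). Both Cd247 calls ended whichever library was left out, those of Cd4 when a library of either pool compared was, and that of Cd4 against N also under both rescalings (adjusted p = 0.0522 and 0.0513). Of the CD8 markers, Cd8a reached 0.36 TPM at most, while Cd8b1 was at 26.7 and 18.7 TPM in N and 3.41 to 9.8 in the ICOS+ libraries and did not pass (adjusted p = 0.097 and 0.0863). The part of these shifts in the MHC values was not tested. A bulk library cannot tell fewer cells of a type from less RNA in each cell.

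Of the 59 genes, 36 reached 1 TPM in at least 2 libraries and were tested. Another 15, all with the H2- prefix, were listed at 0 in all 6 libraries: H2-M1, H2-M5, H2-M6-ps, H2-M9, H2-M10.1 to H2-M10.6, H2-M11, H2-Q3, H2-Pa, H2-Pb and H2-Ea-ps. The other 8, at 2.65 TPM at most in any library, were H2-Ab1, H2-Eb1, H2-Eb2, H2-DMb1, H2-Bl, H2-M2, H2-T3 and Ciita. C57BL/6 mice lack a working class II E alpha chain, the product of H2-Ea-ps.

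In the GENCODE M21 annotation of GRCm38, 58 of the 59 symbols had a location, and the 59th, H2-Ke2, is an older name of Pfdn6 in the RefSeq gene table. All 43 located H2- genes lay on chromosome 17, and with Tapbp, Tap1, Tap2, Psmb8 and Psmb9 they spanned bases 33915899 to 37483552. Psmb9 (34181987 to 34187764, minus strand) and Tap1 (34187553 to 34197225, plus strand) overlapped by 212 bases. Whether counting used the strand is not given in the sources used here, so reads from that stretch could have gone to either gene. The H2-Q genes described most lay in 1 row on the plus strand, H2-Q2 at 35342242 to 35346762, H2-Q5 at 35394126 to 35397800, H2-Q6 at 35424850 to 35430055 and H2-Q7 at 35439155 to 35443773. H2-Ob lay at 34238903 to 34254414, and Psme2 on chromosome 14 at 55587441 to 55591113.

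Promoters are shown for the genes on which the results turn: H2-K1, the most abundant class I heavy chain; H2-Q6 and H2-Q7, near-copies with unequal changes; H2-Q2, which rose in the reporter-positive cells; and H2-Ob, which fell in ACT. Each runs 5′ to 3′ over 300 bases, 250 before and 50 from the annotated start on, from RefSeq on GRCm38.p6. Capitals mark matches on either strand to 4 motifs. These were CCAAT, the Y box of MHC promoters; a kappa B sequence, written GGG, any 2 bases, then TTCCC; an interferon-stimulated response element, GAAA, any 2 bases, then GAAA; and TGACG, a cyclic AMP response element half-site. No match of one overlapped a match of another in the sequences printed.
H2-K1 promoter, chr17:34000298-34000597, minus strand: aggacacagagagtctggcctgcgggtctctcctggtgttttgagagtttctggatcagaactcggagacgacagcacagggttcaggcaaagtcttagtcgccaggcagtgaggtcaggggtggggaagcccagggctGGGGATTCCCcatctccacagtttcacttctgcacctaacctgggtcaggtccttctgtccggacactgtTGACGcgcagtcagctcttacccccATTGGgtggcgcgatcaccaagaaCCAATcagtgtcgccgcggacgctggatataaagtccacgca
H2-Q6 promoter, chr17:35424600-35424899, plus strand: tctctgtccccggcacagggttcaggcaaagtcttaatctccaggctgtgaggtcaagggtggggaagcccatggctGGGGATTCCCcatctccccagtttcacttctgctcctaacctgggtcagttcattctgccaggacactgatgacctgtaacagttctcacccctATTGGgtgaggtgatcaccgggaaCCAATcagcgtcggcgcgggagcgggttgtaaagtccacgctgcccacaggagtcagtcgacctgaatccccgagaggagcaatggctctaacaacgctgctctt
H2-Q7 promoter, chr17:35438905-35439204, plus strand: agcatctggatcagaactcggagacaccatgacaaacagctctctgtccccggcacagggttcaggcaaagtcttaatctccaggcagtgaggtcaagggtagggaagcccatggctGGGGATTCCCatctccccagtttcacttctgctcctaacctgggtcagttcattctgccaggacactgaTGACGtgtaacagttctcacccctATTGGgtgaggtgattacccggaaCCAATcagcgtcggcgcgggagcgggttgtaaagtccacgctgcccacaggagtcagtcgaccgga
H2-Q2 promoter, chr17:35342057-35342356, plus strand: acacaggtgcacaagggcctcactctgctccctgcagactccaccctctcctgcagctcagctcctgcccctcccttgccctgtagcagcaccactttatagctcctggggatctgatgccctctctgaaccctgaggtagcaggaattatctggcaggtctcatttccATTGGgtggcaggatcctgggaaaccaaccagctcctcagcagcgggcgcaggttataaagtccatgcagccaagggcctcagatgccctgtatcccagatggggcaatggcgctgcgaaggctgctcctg
H2-Ob promoter, chr17:34238655-34238954, plus strand: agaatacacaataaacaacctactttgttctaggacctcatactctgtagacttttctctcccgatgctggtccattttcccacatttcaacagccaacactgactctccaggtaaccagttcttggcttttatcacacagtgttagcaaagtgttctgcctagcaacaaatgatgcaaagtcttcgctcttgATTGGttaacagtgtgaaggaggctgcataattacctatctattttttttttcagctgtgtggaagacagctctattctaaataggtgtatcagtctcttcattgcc

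Promoter sequences were found for 42 of the 59 genes. The kappa B sequence was in 5 of 22 class I heavy chain promoters, those of H2-K1, H2-D1, H2-Q4, H2-Q6 and H2-Q7, against 1.75% of 32851 promoters of all genes. CCAAT was in 19 of the 22, against 37.4% of all promoters, and TGACG in 11, against 20.8%. The interferon pattern as written was in 2, H2-T22 and H2-T23, against 3.44%. The 8 class II promoters held CCAAT in 7, and Erap1, Psme1 and B2m were the other genes with that interferon pattern. H2-Q6 and H2-Q7 were identical at 97.3% of 261 aligned positions, and TGACG was in the H2-Q7 window and not in that of H2-Q6. H2-K1 and H2-D1 were identical at 87.9% of 240 positions, and H2-Q2 and H2-K1 at 57.7% of 241. A match describes letters in this window and says nothing of whether a factor binds there. Only the letters as written were searched, so a promoter without a match may still hold a variant of the element.

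Class I genes are alike in their transcripts too, which bears on every value that follows. Of all 50-base stretches in annotated H2-Q6 transcripts, 32% also occurred in those of other genes, 13.95% in H2-Q7 and 12.33% in H2-Q4. The share was 36.45% for H2-Q5 (25.5% with H2-Q7), 26.4% for H2-Q7, 19% for H2-Q10, 16.1% for H2-Q2, 12.8% for H2-D1 and 9.63% for H2-K1. H2-T10 and H2-T22 had 31.7% and 31.25% of their stretches in common with each other. Reads from such stretches are divided among copies by estimation, which makes values of single class I copies uncertain. The shares count stretches without weighting by level, and the size of that uncertainty was not estimated.

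**Figure D1:**
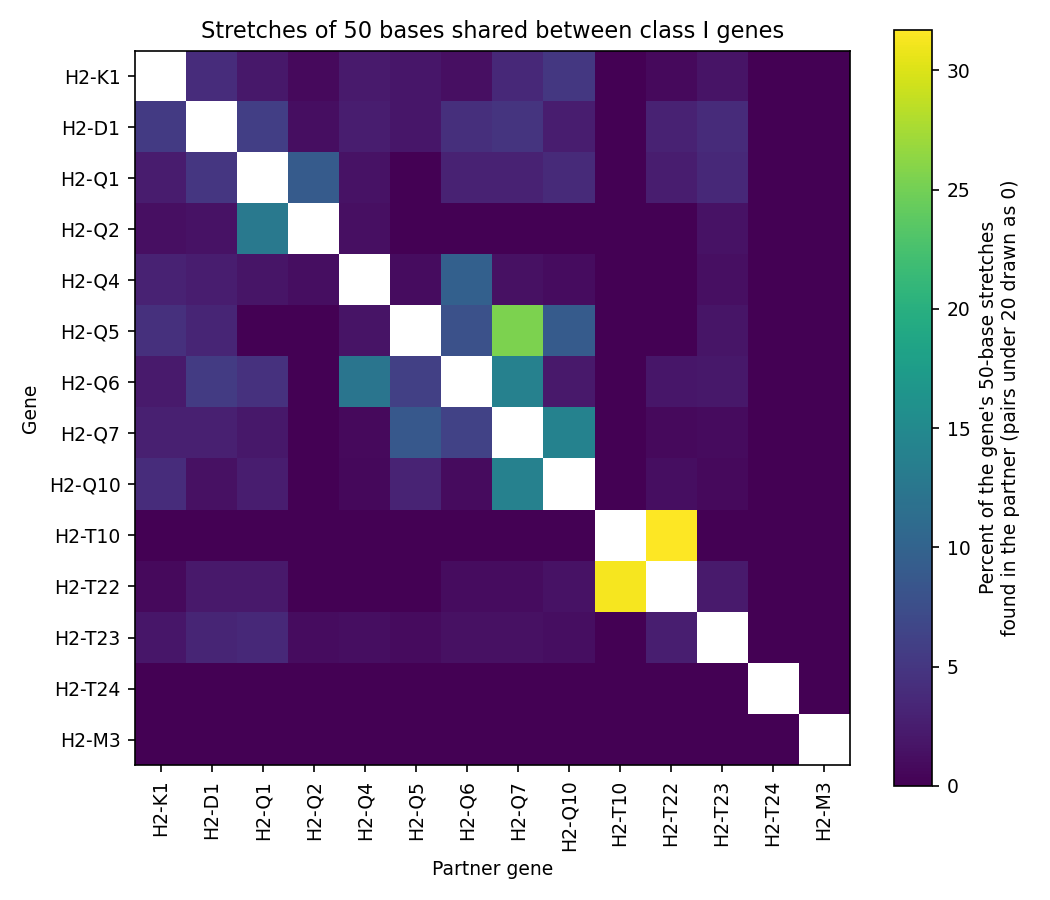
Each cell gives the percent of the 50-base stretches of one class I gene (row) that also occur in another (column), from GENCODE M21 transcripts. The brightest cells join H2-T10 with H2-T22 (31.7% and 31.25%) and H2-Q5 with H2-Q7 (25.5%).

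The levels spread over a wide range. B2m, the gene of beta-2 microglobulin, ranked 5th to 8th among all symbols in every library. H2-K1 ranked 19th to 33rd and H2-D1 110th to 154th. The 59 genes together made up 1.7% to 2.31% of all TPM, most of it B2m. Class II genes together reached 71.03 to 115 TPM, against 4726 to 6664 TPM for the H2- class I genes.

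**Figure D2:**
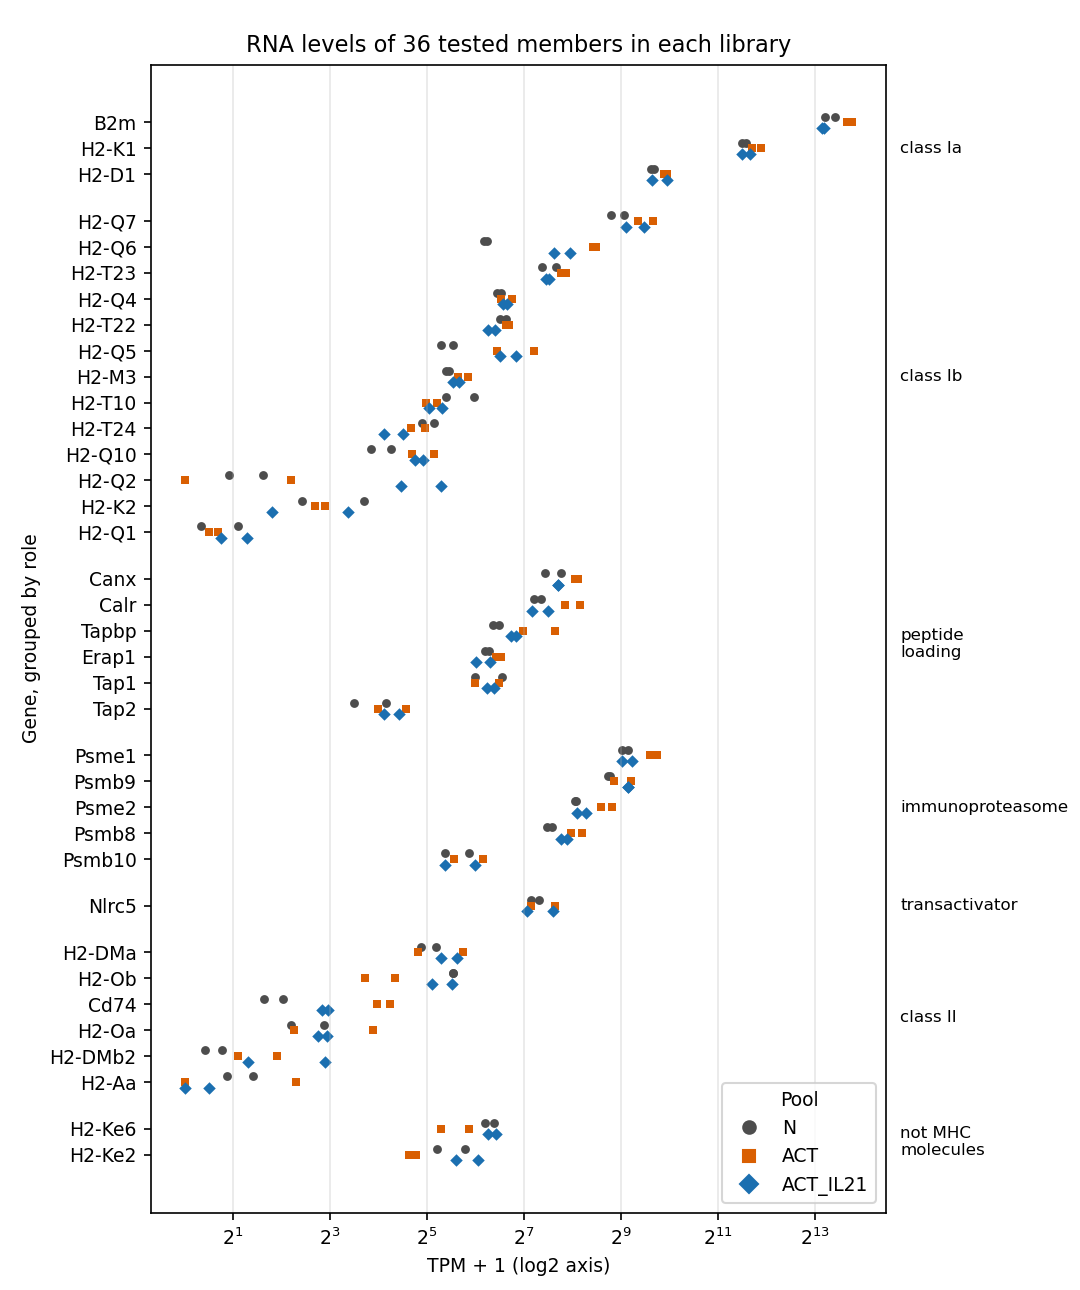
TPM + 1 on a log2 axis for the 36 tested genes, grouped by role, with 1 point a library. B2m and H2-K1 lie at the right in all 3 pools, the class II genes mostly at the left, and the N libraries of H2-Q6 stand apart to the left of the other pools.

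The comparison of ACT with N asks how ICOS+ cells without the reporter differ from ICOS- cells. By limma with Benjamini-Hochberg adjustment over all genes, H2-Q6, H2-Q5, Cd74 and Psme2 rose in ACT and H2-Ob fell, 5 of the 36 tested. The background was 5.58% of 13311 genes called, 4.15% higher and 1.43% lower. In ACT_IL21 against N, H2-Q6, H2-Q5 and H2-Q2 rose and none fell, with 5.09% of all genes called, 3.82% higher and 1.26% lower. Between ACT_IL21 and ACT, H2-Q2 alone passed, higher in ACT_IL21, with 1.95% of all genes called, 0.796% higher and 1.15% lower. Unadjusted p under 0.05 was reached by 11 genes higher and 4 lower in the comparison of ACT with N, by 7 and 1 for ACT_IL21 with N, and by 4 and 8 for ACT_IL21 with ACT. Over all genes tested, the shares at that level were 11.6% higher and 6.99% lower, 12.9% and 5.75%, and 8.49% and 6.37%.

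The classical class I heavy chains and their partner did not pass in any comparison. B2m was at 9530.3 and 11006 TPM in N, 12907 and 13988 in ACT, and 9342 and 9074 in ACT_IL21. H2-K1, which encodes the K heavy chain, was at 3055 and 2879 TPM in N, 3768 and 3360 in ACT, and 2898 and 3250 in ACT_IL21. H2-D1, the D heavy chain gene, was at 825 and 781 TPM in N, 992 and 948 in ACT, and 793 and 984 in ACT_IL21. Both ACT libraries lay above both N libraries for all 3 genes, while the ACT_IL21 libraries lay below those of N for B2m and overlapped them for the heavy chains. With 2 libraries a pool such separation was common. Of all genes tested, 25.2% lay higher in ACT than in N and 19.9% lower in ACT_IL21 than in N. The log2 differences of ACT from N were 0.39 ± 0.19 (SE) for B2m, 0.26 ± 0.16 for H2-K1 and 0.27 ± 0.15 for H2-D1 (adjusted p = 0.331, 0.438 and 0.394). At an unadjusted p under 0.05, none of the 3 was past in either comparison with N and 1 was lower in ACT_IL21 than in ACT. H2-D1 stood at a steady 0.263 to 0.303 of the H2-K1 level in the 6 libraries.

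H2-Q6 had the smallest p of the 36 genes. With H2-Q7 it encodes the Qa-2 antigen, a nonclassical class I molecule. H2-Q6 was at 71.7 and 74.4 TPM in N, 357 and 343 in ACT, and 197 and 248 in ACT_IL21. The 3 pools did not overlap, with N lowest and ACT highest. It rose by 2.24 ± 0.16 on the log2 scale in ACT (adjusted p = 0.000268). Its rise in ACT_IL21 was 1.58 ± 0.16 (adjusted p = 0.00172), and the difference between ACT_IL21 and ACT, -0.66 ± 0.16, did not pass (adjusted p = 0.0875). The ACT call held with each library left out (adjusted p at most 0.00923), while that of ACT_IL21 ended without ACT_IL21 replicate 2 (1.42, adjusted p = 0.0504).

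H2-Q7, whose printed promoter is so close to that of H2-Q6, was at 534 and 447 TPM in N, 812 and 650 in ACT, and 553 and 716 in ACT_IL21. Its ACT and ACT_IL21 libraries lay above those of N, and the differences of 0.57 ± 0.19 and 0.37 ± 0.19 did not pass (adjusted p = 0.142 and 0.355). H2-Q6 stood at 0.134 and 0.167 of the H2-Q7 level in N, at 0.439 and 0.528 in ACT and at 0.356 and 0.346 in ACT_IL21. The gap between their changes was not tested.

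H2-Q5, a polymorphic pseudogene in the annotation, was at 45.2 and 37.97 TPM in N, 146 and 86.5 in ACT, and 89.97 and 113 in ACT_IL21. Every ICOS+ library lay above both N libraries. It rose by 1.42 ± 0.26 on the log2 scale in ACT (adjusted p = 0.0206) and by 1.27 ± 0.26 in ACT_IL21 (adjusted p = 0.0347), and ACT and ACT_IL21 overlapped. The ACT call held without ACT replicate 2 and ended without each of the other 5 libraries (adjusted p = 0.0703 to 0.203). That of ACT_IL21 ended without either N or either ACT_IL21 library (0.168 to 0.291).

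H2-Q10, the gene of a secreted class I molecule known from liver, was at 18.01 and 13.4 TPM in N, 34.4 and 24.7 in ACT, and 26.1 and 29.2 in ACT_IL21, and did not pass (0.87 ± 0.27 and 0.79 ± 0.27, adjusted p = 0.126 and 0.166). Because H2-Q5, H2-Q6, H2-Q7 and H2-Q10 share sequence, their sum is less open to misassigned reads among them. Reads shared with genes outside the sum fall outside that safeguard. H2-Q6 had 12.33% of its stretches in common with H2-Q4, 5.45% with H2-D1 and 2.26% with H2-K1. H2-Q10 had 3.97% in common with H2-K1. Both H2-K1 and H2-D1 were more abundant than H2-Q6 and H2-Q10 in every library. The sum was 668 and 572 TPM in N, 1349.8 and 1104 in ACT, and 865 and 1107 in ACT_IL21. All ICOS+ libraries lay above both N libraries. H2-Q4, at 85.6 to 107 TPM in all 6 libraries, did not pass in either comparison with N (0.16 ± 0.16 and 0.12 ± 0.16).

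H2-Q2, a class I gene of the same cluster, followed another order. It was at 2.06 and 0.89 TPM in N, 0 and 3.56 in ACT, and 37.96 and 20.9 in ACT_IL21. N and ACT overlapped, and both ACT_IL21 libraries stood far above the other 4. The gene rose in ACT_IL21 against N (3.6 ± 0.72, adjusted p = 0.0301) and against ACT (3.77 ± 0.72, adjusted p = 0.0461), with -0.17 ± 0.72 for ACT against N (adjusted p = 0.94). The call against N ended without either N or either ACT_IL21 library (3.19 to 4.02, adjusted p = 0.164 to 0.276), and with a pseudocount of 0.1 both calls ended (adjusted p = 0.189 and 0.155). The call against ACT held in 1 of the 6 fits with a library left out, that without ACT replicate 2 (4.87), and in the other 5 the adjusted p was 0.103 to 0.289. The difference itself ranged from 2.68 without ACT replicate 1 to 4.87, and was 5.55 with the pseudocount of 0.1. H2-Q1, its closest relative by shared stretches (12.85%), stayed at 0.26 to 1.43 TPM.

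The T and M region genes showed no call. H2-T23, which encodes Qa-1, the ligand of CD94/NKG2 receptors, was at 201 and 164 TPM in N, 233 and 216 in ACT, and 181 and 175 in ACT_IL21 (0.3 ± 0.15 in ACT, adjusted p = 0.345). H2-M3, which presents formylated peptides, was at 41.1 and 42.9 TPM in N, 49.2 and 56.6 in ACT, and 49.7 and 45.8 in ACT_IL21 (0.32 ± 0.18, adjusted p = 0.41). For both genes the ACT libraries lay above those of N, as for 25.2% of all genes tested. H2-T22 and H2-T10, relatives recognised by some gamma delta T cells, summed to 131 and 160 TPM in N, 134 and 134 in ACT, and 123 and 107 in ACT_IL21. H2-T10 alone was at 41.1 and 61.7 TPM in N and 30.8 to 38.8 in the 4 ICOS+ libraries, and H2-T22 at 90.1 and 98.4 in N, 98.2 and 103 in ACT, and 83.9 and 75.1 in ACT_IL21. H2-T24 was at 28.7 and 34.5 TPM in N, 24.4 and 30.1 in ACT, and 16.4 and 21.7 in ACT_IL21 (-0.71 ± 0.25 in ACT_IL21, adjusted p = 0.184). H2-K2, a transcribed pseudogene, ranged from 2.49 to 12.1 TPM with all pools overlapping.

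**Figure D3:**
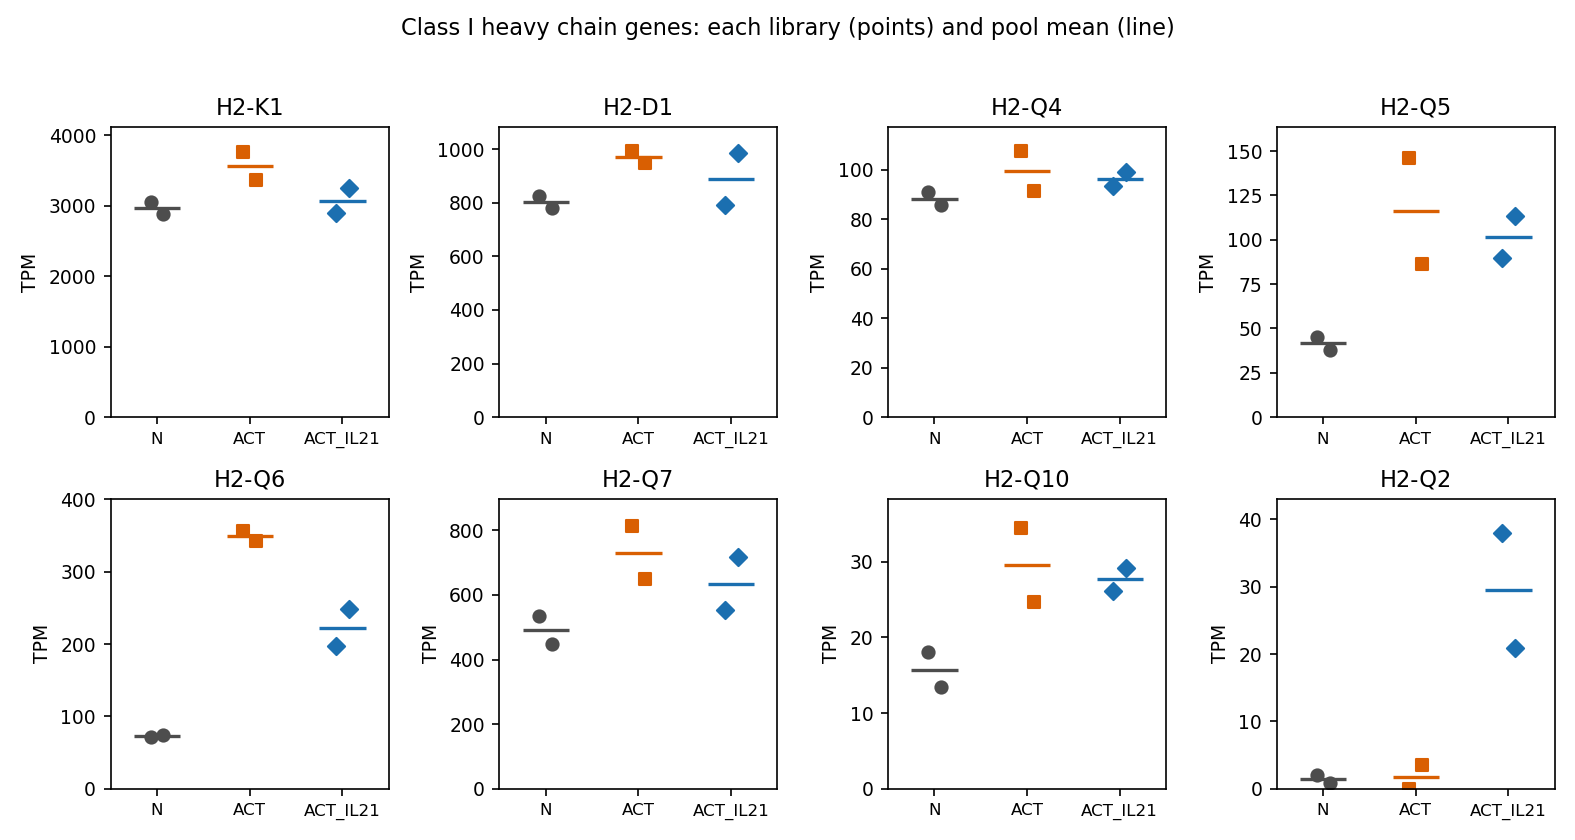
TPM in each library (points) and pool means (lines) for 8 class I heavy chain genes, each panel on its own axis from 0. H2-K1, H2-D1 and H2-Q4 move little between pools, H2-Q5 and H2-Q6 are lowest in N, and H2-Q2 is high in ACT_IL21 alone.

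None of the 6 peptide loading genes was called. Of these, 5 had a positive difference in ACT, against 52.1% of all genes tested, and 3 were higher at an unadjusted p under 0.05, against 11.6%. The median was 0.47 against 0.02 over all genes tested. At that unadjusted level none was past in ACT_IL21 against N and 3 were lower in ACT_IL21 than in ACT. Tapbp encodes tapasin, which bridges class I and the TAP transporter. It was at 89.0 and 81.0 TPM in N, 197 and 125 in ACT, and 106 and 113 in ACT_IL21, with no overlap between the pools (0.88 ± 0.22 in ACT, adjusted p = 0.0635). Calr, the gene of the chaperone calreticulin, was at 146 and 163 TPM in N, 283 and 228 in ACT, and 143 and 179 in ACT_IL21 (0.71 ± 0.18 in ACT, adjusted p = 0.0624). Only the ACT libraries stood apart there, and likewise for Canx, which encodes the chaperone calnexin. Canx was at 173 and 216 TPM in N, 265 and 276 in ACT, and 207 and 208 in ACT_IL21 (0.48 ± 0.15, adjusted p = 0.129).

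The transporter genes themselves overlapped between all pools. Tap1 was at 91.9 and 62.3 TPM in N, 88.8 and 62.4 in ACT, and 74.3 and 82.5 in ACT_IL21. Tap2, its partner subunit, ranged from 10.3 to 22.7 TPM. Erap1, the aminopeptidase gene that trims peptides, was at 72.6 and 76.8 TPM in N, 91.8 and 85.2 in ACT, and 77.4 and 63.2 in ACT_IL21 (0.24 ± 0.17 in ACT, adjusted p = 0.53). Nlrc5, the transactivator of class I genes, was at 141 and 158 TPM in N, 141 and 199.9 in ACT, and 133 and 193 in ACT_IL21, with overlap throughout (0.17 ± 0.23 and 0.1 ± 0.23).

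Of the immunoproteasome genes, Psme2 passed in ACT. With Psme1 it encodes the PA28 activator, which opens the proteasome. Psme2 was at 266 and 269 TPM in N, 452 and 386 in ACT, and 310 and 274 in ACT_IL21. ACT stood clear of both other pools (0.64 ± 0.14, adjusted p = 0.0447). That call ended whichever library was left out (adjusted p = 0.0561 to 0.245) and under both rescalings (0.0612 and 0.0593). Psme2 shared 28.3% of its stretches with Psme2b, whose older name in the table, Psme2b-ps, had 152 and 138 TPM in N, 95.1 and 106 in ACT, and 127 and 104 in ACT_IL21. The sum of both was 418 and 407 TPM in N, 547 and 493 in ACT, and 437 and 378 in ACT_IL21, so the sum differed less between the pools than Psme2 alone.

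Psme1 was at 522 and 569 TPM in N, 771 and 857 in ACT, and 601 and 521 in ACT_IL21, with ACT above both (0.58 ± 0.14, adjusted p = 0.0618). Psmb8, a catalytic subunit gene, was at 191 and 178 TPM in N, 294 and 252 in ACT, and 216 and 236 in ACT_IL21, and the 3 pools did not overlap (0.56 ± 0.15 in ACT, adjusted p = 0.0732). The catalytic subunit gene Psmb9 was at 423 and 435 TPM in N, 591 and 464 in ACT, and 568 and 569 in ACT_IL21 (0.41 ± 0.15 in ACT_IL21, adjusted p = 0.204). Psmb10, the other catalytic subunit gene, ranged from 40.2 to 69.96 TPM with full overlap. These 3 replace the constitutive subunits of Psmb5, Psmb6 and Psmb7. Psmb8 stood at 2.28 to 3.97 times Psmb5 and Psmb10 at 0.347 to 0.663 times Psmb7, both with overlap between the pools. Psmb9 stood at 4.79 and 5.55 times Psmb6 in N, 6.17 and 5.59 in ACT, and 7.56 and 7.91 in ACT_IL21, a ratio lowest in N and highest in ACT_IL21.

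Class II chains were at the edge of detection. H2-Aa, the A alpha chain gene, was at 0.84 and 1.65 TPM in N, 0 and 3.95 in ACT, and 0.42 and 0 in ACT_IL21. H2-Ab1, the A beta chain gene, was at 0 in N, 0.86 and 1.04 TPM in ACT, and 0 and 0.57 in ACT_IL21. H2-Eb1 reached 0.88 TPM and H2-Eb2 0.14 TPM at most. Ciita, the master regulator of class II genes, was at 0 to 0.14 TPM. The 4 chain genes summed to 0.42 to 5.13 TPM, with overlap between all pools.

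Cd74 encodes the invariant chain, which guides class II through the cell and is also a receptor for the cytokine MIF. It was at 3.09 and 2.13 TPM in N, 17.8 and 14.6 in ACT, and 6.8 and 6.13 in ACT_IL21. No pools overlapped, and the order was N, ACT_IL21, ACT. It rose in ACT (2.26 ± 0.37, adjusted p = 0.0119) and did not pass in ACT_IL21 against N (1.06 ± 0.37, adjusted p = 0.167) or against ACT (-1.2 ± 0.37, adjusted p = 0.175). The call ended without N replicate 1 (adjusted p = 0.0901), N replicate 2 (0.139) or ACT replicate 1 (0.063).

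H2-O, a dimer of H2-Oa and H2-Ob, restrains H2-DM, which exchanges peptides on class II molecules. H2-Ob was at 45.3 and 45.2 TPM in N, 12.2 and 19.3 in ACT, and 33.3 and 44.6 in ACT_IL21. Both ACT libraries lay below all 4 others. H2-Ob fell by 1.5 on the log2 scale in ACT (SE 0.27, adjusted p = 0.0193), with 1.28 ± 0.27 between ACT_IL21 and ACT (adjusted p = 0.0679) and -0.23 ± 0.27 between ACT_IL21 and N. The call held without ACT replicate 2 and ended without each of the other 5 libraries (adjusted p = 0.0599 to 0.187). With the replicate number as a block, the difference between ACT_IL21 and ACT passed (adjusted p = 0.0433), and so did Tapbp in ACT against N (0.0463).

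H2-Oa was at 6.34 and 3.61 TPM in N, 13.8 and 3.79 in ACT, and 6.65 and 5.74 in ACT_IL21, all overlapping. H2-DMa, the alpha chain gene of H2-DM, was at 35.2 and 28.4 TPM in N, 52.6 and 27.1 in ACT, and 38.1 and 48.1 in ACT_IL21 (0.25 ± 0.32 and 0.42 ± 0.32). Its beta chain genes share 21.2% to 22.65% of their stretches. H2-DMb2 was at 0.34 and 0.71 TPM in N, 2.75 and 1.16 in ACT, and 1.49 and 6.49 in ACT_IL21, and H2-DMb1 at 2.65 TPM at most. H2-DMa and H2-Ob thus stood at 12.2 to 52.6 TPM in libraries in which no class II chain gene exceeded 3.95 TPM.

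Markers of antigen-presenting cells stood beside these values as follows. Of the 14 B cell markers, 13 were found by symbol. Pax5 and Blk were listed at 0 in all 6 libraries, Ms4a1 reached 0.24 TPM at most and Cd79a 0.7 TPM at most. Ighm was at 317 to 594 TPM. The other 12 summed to 2.48 and 3.83 TPM in N, 5.58 and 6.33 in ACT, and 15.6 and 20.8 in ACT_IL21, a split made after the values were seen. Cd22, an inhibitory receptor gene of B cells, made up most of the last, at 0 and 0.07 TPM in N, 1.62 and 3.68 in ACT, and 13.1 and 17.5 in ACT_IL21. It rose in ACT_IL21 against N (adjusted p = 0.00344), 1 of the 3 B cell markers tested, against 3.82% of all genes called higher. That call ended without either N or either ACT_IL21 library (differences of 3.77 to 4.16).

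The 15 dendritic and myeloid markers, of which 14 were found by symbol, summed to 33.1 and 38.7 TPM in N, 70.9 and 80.9 in ACT, and 60.3 and 61.1 in ACT_IL21. Cst3, a cysteine protease inhibitor gene made by many cells, gave most of that sum. It was the 1 of 5 tested that rose in ACT (1.01 ± 0.21, adjusted p = 0.0338), against 4.15% of all genes called higher. The Cst3 call held without ACT replicate 2 and ended without each of the other 5 libraries (differences of 0.82 to 1.14). Clec9a, Cd209a, Siglech and Cd14 were listed at 0 in all libraries and Itgax at 0.44 TPM at most. Xcr1, a dendritic cell chemokine receptor gene, was at 0.15 and 0.41 TPM in N, 3.59 and 3.65 in ACT, and 0.27 and 0.06 in ACT_IL21, highest in ACT like Cd74 (1.86 ± 0.44 in ACT, adjusted p = 0.0525). Zbtb46 was at 4.82 and 5.17 TPM in ACT and 2.06 to 3.75 in the other libraries, and Fcer1g at 0.63 and 4.5 in ACT and 0.38 at most elsewhere. Others of the list had another order. Tyrobp was at 0.39 and 2.47 TPM in ACT and 3.04 and 3.05 in ACT_IL21. Cd68 was at 2.39 and 1.67 in ACT and 5.06 and 1.46 in ACT_IL21. Csf1r was at 0 in ACT, 0.2 and 0.32 in N, and 0 and 1.13 in ACT_IL21. Flt3 stayed at 0.34 to 0.74 TPM. The dendritic and myeloid sum was higher in both ACT libraries than in both N libraries, in the same direction as Cd74. The whole B cell sum was 468 and 319 TPM in N, 599 and 464 in ACT, and 351 and 355 in ACT_IL21. For that sum N and ACT overlapped, and both ACT libraries lay above both ACT_IL21 libraries. Without Ighm the B cell sum was highest in ACT_IL21, where Cd22 made up most of it, unlike Cd74. Cd79b, tested beside Ighm and Cd22, was highest in ACT like Cd74. It was at 1.58 and 0.54 TPM in N, 2.47 and 2.1 in ACT, and 0.71 and 1.51 in ACT_IL21. All 3 B cell markers tested had a positive difference in ACT against N, against 52.1% of all genes tested, and 0 were called there. The part of either list in the Cd74 result was not tested.

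**Figure D4:**
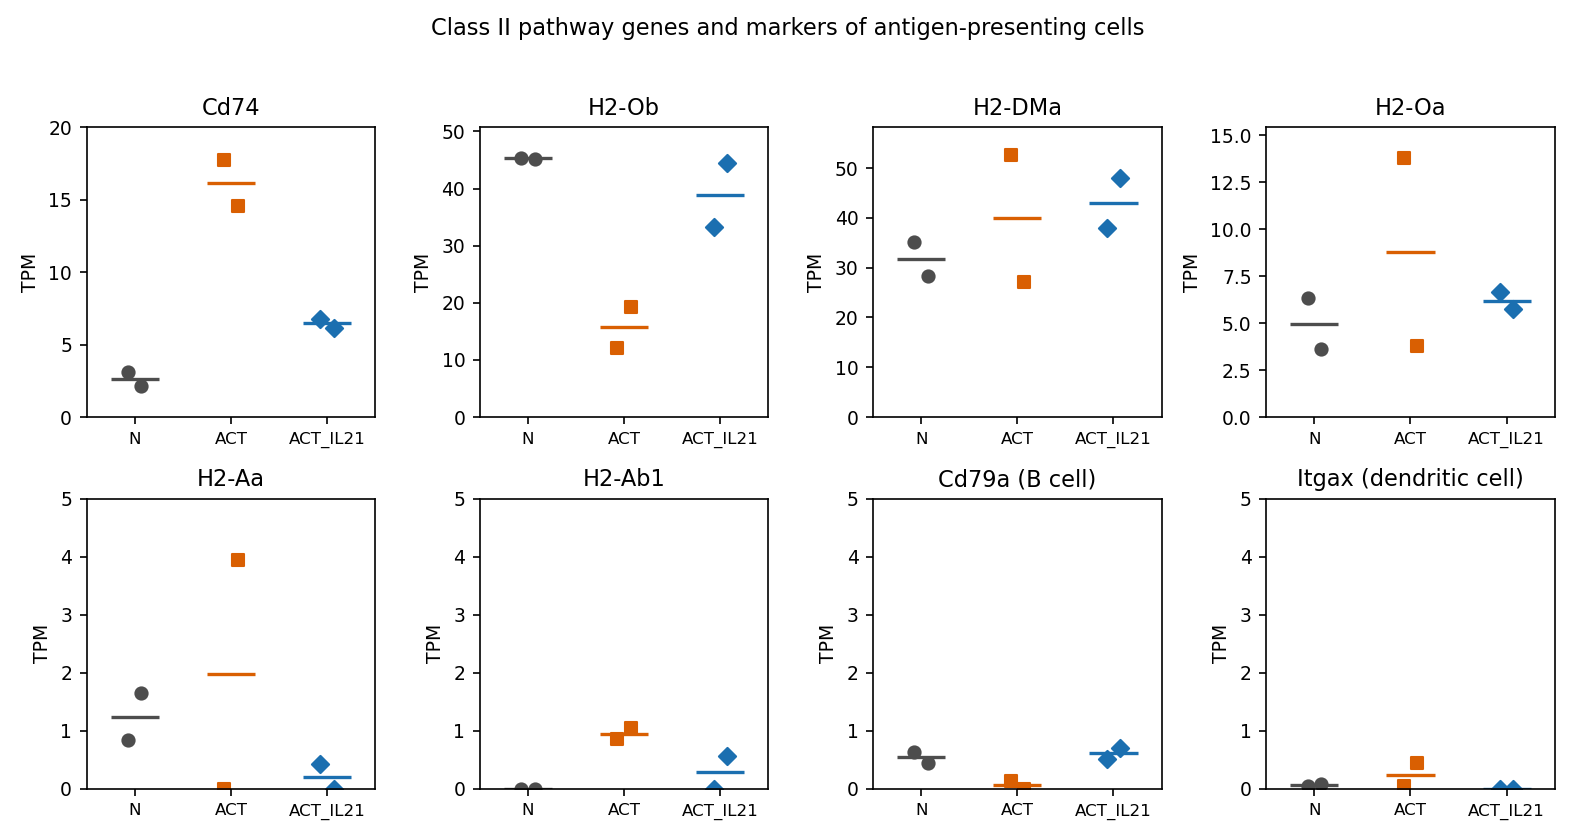
TPM in each library (points) and pool means (lines) for 6 class II pathway genes, Cd79a and Itgax, on axes from 0, with the lower 4 panels sharing a 0 to 5 TPM axis. Cd74 is highest in ACT, H2-Ob is lowest in ACT, and the chains H2-Aa and H2-Ab1 stay under 5 TPM.

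Natural killer and NKT markers also moved with the pools in which H2-Q6, Cd74 and H2-Ob differed. The 8 markers summed to 55.1 and 59.4 TPM in N, 982 and 1107 in ACT, and 178 and 218 in ACT_IL21. Of the 7 tested, 5 rose in ACT against N, 2 rose and 1 fell in ACT_IL21 against N, and 6 were lower in ACT_IL21 than in ACT. Of all genes, 4.15% were called higher in the first, 3.82% higher and 1.26% lower in the second, and 1.15% lower in the third. The 5 calls of ACT against N held with each library left out, except that of Klrk1 without N replicate 1 (adjusted p = 0.0704). Each of the 6 against ACT ended in at least 2 of those fits, and those of Klrk1, Nkg7 and Zbtb16 in all 6 (0.0523 to 0.206). The fall of Klrd1 in ACT_IL21 against N ended without N replicate 1, N replicate 2 or ACT_IL21 replicate 1 (0.0938 to 0.21). Klrb1c was at 2.56 and 2.38 TPM in N, 166 and 177 in ACT, and 25.5 and 25.7 in ACT_IL21. Zbtb16 was at 0 and 0.18 in N, 40.05 and 27.3 in ACT, and 5.91 and 1.7 in ACT_IL21. Xcl1 was at 2.06 and 2.08 in N, 195 and 228 in ACT, and 3.89 and 15.6 in ACT_IL21. Ncr1, a defining natural killer cell receptor gene, was listed at 0 in 4 libraries and at 1.06 TPM at most. The part of such cells in the MHC values was not tested. Of the 5 plasma cell markers, 4 were found by symbol, summing to 71.3 to 133 TPM, and the 1 tested, Xbp1, did not pass.

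The remaining H2- symbols encode no MHC molecule. H2-Ke2, the prefoldin subunit gene Pfdn6, was at 53.9 and 35.9 TPM in N, 26.2 and 23.8 in ACT, and 47.7 and 65.2 in ACT_IL21. H2-Ke6, a hydroxysteroid dehydrogenase gene, was at 82 and 71.9 TPM in N, 57.0 and 38.3 in ACT, and 84.9 and 75.1 in ACT_IL21. For both, the ACT libraries lay below the other 4, and neither passed (-0.8 ± 0.26 and -0.7 ± 0.22 against N, adjusted p = 0.142 and 0.128). Over all genes tested, 21.9% lay lower in ACT than in N without overlap. Gm20427, an overlapping annotation, shared 70.5% of the stretches of H2-Ke6.

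The other pathway lists were read against the 5.58% of all genes called in ACT and the 5.09% called in ACT_IL21 against N. Of 17 other proteasome genes, 2 rose in ACT, the assembly factor gene Pomp (0.8 ± 0.13, adjusted p = 0.0135) and the subunit gene Psmb3 (0.7 ± 0.16, adjusted p = 0.0483). Pomp alone also rose in ACT_IL21 (0.64 ± 0.13, adjusted p = 0.0358). The median of the 17 was 0.45 in ACT and 0.21 in ACT_IL21, with 16 and 14 positive, against 52.1% and 58.4% of all genes. Pomp stood at 198 and 204 TPM in N, 370.2 and 331 in ACT, and 322 and 306 in ACT_IL21, so its pools did not overlap.

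Of 10 other class I processing genes, 2 rose in ACT and none passed elsewhere. Pdia3, which encodes ERp57 of the loading complex, was at 182 and 216 TPM in N, 333 and 333 in ACT, and 223 and 234 in ACT_IL21 (0.75 ± 0.14 in ACT, adjusted p = 0.0228). Hspa5, which encodes the chaperone BiP, rose by 0.71 ± 0.15 (adjusted p = 0.0305). Unadjusted p under 0.05 was reached by 2 genes higher in ACT, 1 higher in ACT_IL21 and 2 lower in ACT_IL21 than in ACT. The calls of Psmb3, Pdia3 and Hspa5 ended whichever library was left out (adjusted p = 0.0726 to 0.331). For Pomp, the ACT call held only without ACT replicate 2 and the ACT_IL21 call only without either ACT library.

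The interferon and promoter factor list had 1 gene higher and 1 lower of 16 in each comparison with N. Jak2, a kinase gene of the interferon-gamma receptor, was at 79.3 and 87.7 TPM in N, 206 and 233 in ACT, and 159 and 153 in ACT_IL21. Its rise in ACT, by 1.38 ± 0.15 (adjusted p = 0.00172), held as a call with each library left out. Its rise in ACT_IL21, by 0.9 ± 0.15 (adjusted p = 0.0138), ended as one without either N or either ACT_IL21 library (0.0968 to 0.142). Ifngr2, which encodes a chain of that receptor, was at 27.96 and 24.4 TPM in N, 8.5 and 6.9 in ACT, and 3.05 and 4.25 in ACT_IL21. Ifngr2 fell in both (by 1.65 and 2.56 on the log2 scale, adjusted p = 0.0302 and 0.0054). The first call ended whichever library was left out (adjusted p = 0.0587 to 0.284), and the second without either N or either ACT_IL21 library (0.0625 to 0.105).

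Ifngr1, the ligand-binding chain gene, was at 111 and 123 TPM in N, 177 and 153 in ACT, and 86.7 and 72.4 in ACT_IL21. It was the gene of this list lower in ACT_IL21 than in ACT (-1.04 ± 0.17, adjusted p = 0.0239), a call that ended whichever library was left out (0.0694 to 0.221). Rfx5, which encodes a factor that binds MHC promoters and was singled out after its values were seen, was at 13.3 and 12.4 TPM in N, 26.0 and 26.2 in ACT, and 11.4 and 17.3 in ACT_IL21 (0.97 ± 0.29 in ACT, adjusted p = 0.108).

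Of 11 endosomal genes, 9 were tested and Ctsb, a cathepsin gene, rose in ACT by 1.01 ± 0.18 on the log2 scale (adjusted p = 0.0162). Against N it also rose in ACT_IL21, by 1.26 ± 0.18 (adjusted p = 0.00692). It was at 51.9 and 49.5 TPM in N, 118 and 90.2 in ACT, and 123 and 123 in ACT_IL21. The ACT call held without ACT replicate 2 and ended without each of the other 5 libraries (adjusted p = 0.0636 to 0.158), and that of ACT_IL21 without either N or either ACT_IL21 library (0.0809 to 0.105). Ctss, the cathepsin gene that trims the invariant chain, was the most abundant of the list at 251 to 425 TPM and did not pass. Of the 10 MHC I-like genes outside the H2- symbols, 4 were tested and none passed by limma, and 1 was higher and 1 lower in ACT_IL21 than in ACT at an unadjusted p under 0.05. Cd1d1, which presents lipids to NKT cells, was at 25.8 to 43.9 TPM in all 6 libraries.

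Set against all genes tested, the 36 genes stood as follows. Both ACT libraries lay above both N libraries for 20 of the 36 (55.6%), against 25.2% of all genes tested, and below for 4 (11.1%), against 21.9%. For ACT_IL21 against N the counts were 14 above (38.9%), against 31.5%, and 6 below (16.7%), against 19.9%. For ACT_IL21 against ACT they were 5 above (13.9%), against 24.5%, and 14 below (38.9%), against 17.3%. The medians of the log2 differences were 0.28, 0.12 and -0.19, against 0.02, 0.1 and 0.08 over all genes tested. The comparisons share libraries, and genes of this group share sequence and are not independent.

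**Figure D5:**
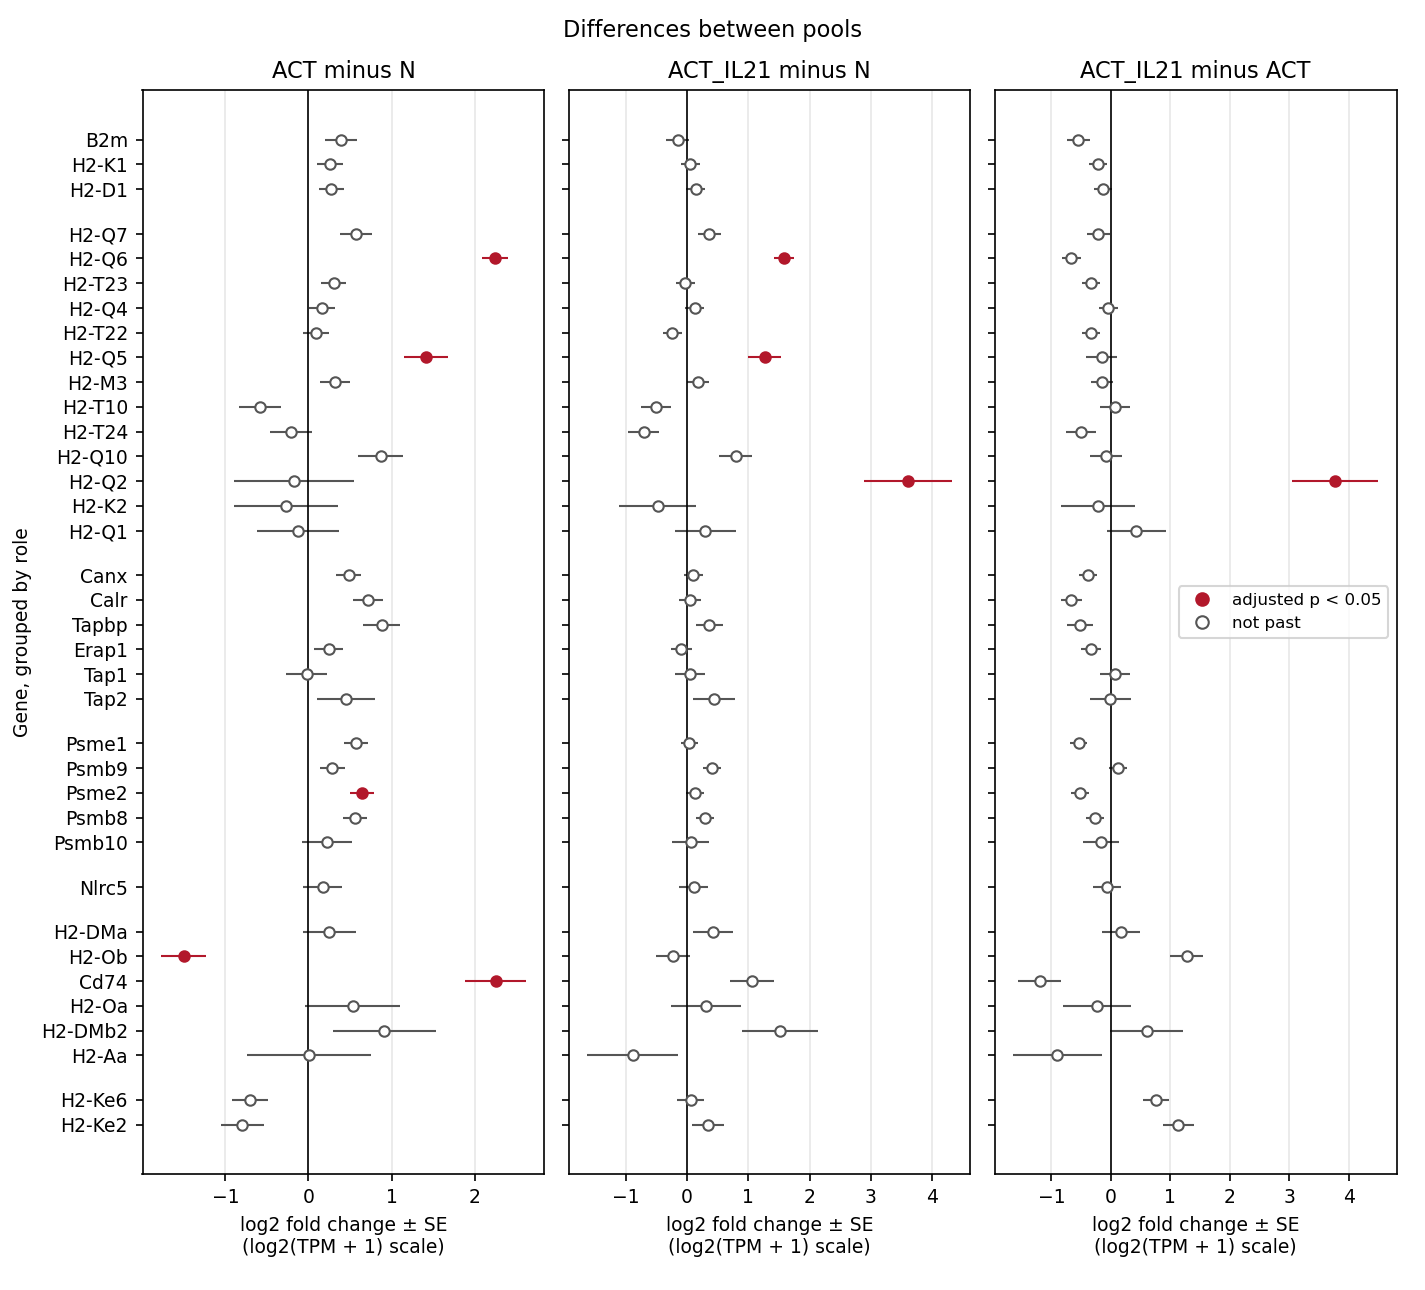
Log2 fold changes ± SE of the 36 tested genes in the 3 comparisons, on the log2(TPM + 1) scale, filled red where the adjusted p is under 0.05. H2-Q6 and H2-Q5 pass against N in both ICOS+ pools, Cd74, Psme2 and H2-Ob in ACT, and H2-Q2 in both comparisons of ACT_IL21.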

How the data were processed

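The authors deposited TPM per gene, 1 column for each of 6 libraries (2 in each of 3 pools). Per the submitters' processing notes, Trimmomatic, Bowtie, RSEM and GRCm38 were used; the sources used here give no version, annotation or strand setting. Per the labels' protocols, RNA was poly-A enriched and amplified with the Nugen Ovation Kit. RSEM divides shared reads by estimation, and TPM keeps no depth, so no counting interval is given.

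Repeated symbols (139 of 38355 entries) were summed. Symbols with at least 1 TPM in at least 2 libraries (13311) were tested with limma 3.58.1 (R 4.3.3) on log2(TPM + 1), all libraries in 1 fit by pool with an intensity trend (3 residual and 4.84 prior degrees of freedom), two-sided, Benjamini-Hochberg adjustment over all genes per comparison, threshold 0.05. This scale understates changes of low genes. The script was tested on simulated data. Members and lists were chosen with earlier results of these data known. Library values are given for called members, members averaging 20 TPM or more, and class II genes; at most 4 genes per other list are named, by p or level. Rfx5, Ctss, H2-K2, H2-Q1, Psme2b-ps, the sums of near-copies and the single markers named (Cd4, Cd247, Cd8b1 and Xcr1 among them) were chosen after their values were seen. Shared stretches are exact 50-base matches between GENCODE M21 transcripts of different genes. Alternatives changed the pseudocount, filter, scaling, pools fitted, trend and replicate block, and left out each library.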

Additional observations from a re-analysis of the deposited data

How the results depend on the processing

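The 15 alternatives reversed none of the 41 called gene results. Of the combinations of a called result and an alternative, 396 kept the call and 219 lost it. Among the 121 results not called, 12 such combinations gained a call. Of those 121 results, 39 changed sign in at least 1 alternative, always without a call. Without a filter on low values, 469 genes were called in ACT against N (2 members higher, 0 lower), 410 in ACT_IL21 against N (1 member higher) and 124 in ACT_IL21 against ACT (0 members higher). Fitting only the pools compared gave 417 genes in ACT against N (2 members higher, 0 lower) and 92 in ACT_IL21 against ACT (0 members higher). Without the intensity trend, 2 members were higher and 0 lower in ACT against N, 1 higher in ACT_IL21 against N and 0 higher in ACT_IL21 against ACT. A pseudocount of 0.1 and the scaling without ribosomal and receptor genes each left 0 members higher in ACT_IL21 against ACT. With 1 library left out, where a lone library is assumed to vary like the other pools, ACT against N gave 205 to 526 genes, 1 to 4 members higher and 0 to 1 lower. ACT_IL21 against N gave 75 to 728 genes and 0 to 3 members higher, and ACT_IL21 against ACT 0 to 81 genes and 0 to 1 members higher. The lowest counts were without N replicate 1, ACT_IL21 replicate 2 and ACT_IL21 replicate 1. With the replicate number as a block, 784, 732 and 284 genes were called, and 2 members were higher in ACT_IL21 against ACT, H2-Q2 and H2-Ob. Deviations of same-numbered libraries correlated at 0.21 for N and ACT, -0.004 for N and ACT_IL21 and 0.00078 for ACT and ACT_IL21, and the numbers were not taken as pairs. Whether same-numbered libraries share a source is not known. Under median-ratio scaling the median of the 36 members was 0.24, 0.01 and -0.25 in the 3 comparisons, with 19 of 36 positive in ACT_IL21 against N where the fit reported had 27. Causes were not tested. TPM carries no depth, so low values such as those of the class II chains have no counting error here, and reads shared between class I copies limit single-copy values.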
